A study of Homo sapiens with 6 samples.

Results

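Molecular chaperones and their co-chaperones were followed in a bladder cancer line and in its chemoresistant subline. The genes were the protein-coding rows of the count table whose symbols belong to the HSP90, HSPA, HSPB, HSPH1, HSPD1, HSPE1, DNAJA, DNAJB, DNAJC, CCT with TCP1, BAG1 to BAG6, HSF1 and HSF2 series. This rule, which used symbols and no measured value, found 78 of 18936 genes, and 74 of them passed the filter on low counts. UC3 is a human bladder carcinoma cell line that had received no drug selection. UC3DDP, called UC3-R in the study, was derived from it by repeated exposure to rising doses of gemcitabine, a nucleoside analogue, and cisplatin, a platinum compound that crosslinks DNA. According to the study's methods, cycles of drug were separated by growth without drug until resistance was stable, and whether this single subline is a clone was not stated. Total RNA was sequenced in 3 libraries of each line. The study's methods state in general that experiments were done at least 3 times independently and that n counts biological replicates. Neither that statement nor the labels say whether these 3 libraries came from separate cultures. The p-values therefore reflect variation among libraries that could be purely technical.

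Chaperones bind unfolded proteins and help them to fold, to assemble or to be degraded. HSP70 proteins bind exposed hydrophobic stretches in a cycle driven by ATP, and J-domain proteins of the DNAJ series start this cycle. HSP110 proteins and several BAG proteins end the cycle by exchanging the nucleotide. HSP90 takes over kinases and steroid receptors at a later stage, the CCT ring folds actin and tubulin, HSP60 with HSP10 works in the mitochondrion, and HSF1 switches on many of these genes after heat or other protein damage.

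The UC3 libraries held between 19467228 and 20803970 counts and the UC3DDP libraries between 16757610 and 17254683. Levels are given as CPM, each library's counts scaled by its size after TMM correction (trimmed mean of M-values). A gene was called where its adjusted p was under 0.05 and its log2 fold change lay beyond 1 in either direction (the fold limit). A change along GC content ran through the whole table. Genes with GC-rich transcripts exceeded those with GC-poor transcripts by 2.44, 1.74 and 1.90 more (log2) in the UC3DDP libraries than in the UC3 average, against -0.018 to 0.020 in single UC3 libraries. UC3DDP replicate 1 stood apart, since its counts differed from those of its sister libraries by chi-square values of 24.1 and 14.3 per degree of freedom, against 3.69 between those sisters, and with 10 of the 11 measured markers of fibroblasts, endothelium, blood and retina at their highest. The summed level of these markers was 31.0 CPM there, 16.7 and 15.2 CPM in the other UC3DDP libraries and 5.24 to 6.25 CPM in UC3. They were the part of 19 listed markers of such cells that the table held. All 6 epithelial markers were also highest in that library, with a sum of 419.6 CPM against 326.2 and 337.4 CPM in its sisters. Of 6 urothelial markers in the table, 2 were highest there. Mitochondrially encoded genes took 4.59% to 4.68% of counts in UC3 and 9.98% to 11.1% in UC3DDP. Of the epithelial markers KRT18, KRT8 and KRT7 were detected in all libraries, while EPCAM and KRT19 stayed under 1 CPM. KRT7 was called higher (mean 2.50 CPM in UC3 and 6.91 CPM in UC3DDP). In the second fit described below its log2 fold change was 0.68, and it was not called. Of 10 listed urothelial markers 6 were in the table, and UPK1B, UPK3A, KRT5 and KRT20 were not. PPARG (14.5 and 16.8 CPM) and FOXA1 (1.69 and 2.83 CPM) were detected in both lines, and GATA3 (0.795 and 1.55 CPM) was under 1 CPM in UC3. TP63 was called higher in both fits (0.049 and 2.16 CPM), and UPK1A and UPK2 stayed under 1 CPM. CDH1 was at 0 counts in 5 libraries and at 9.44 CPM in UC3DDP replicate 1. The part that these markers, the mitochondrial share or the GC trend had in the results was not tested. Because the resistant line and the GC trend cannot be told apart by design, values from a second fit are also given, in which trends on transcript GC content and length were removed, here called adjusted values.

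Chaperone genes moved in both directions. Of the 74 tested genes, 8 were called higher in UC3DDP (10.8%, against 17.6% of all 15120 tested genes) and 20 were called lower (27.0%, against 23.1%). The share called lower was thus near that of all genes, and the share called higher was below it. The median log2 fold change was -0.14 among the chaperone genes and 0.021 among all tested genes. After adjustment 6 were called higher (8.11%, against 14.3%) and 6 lower (8.11%, against 13.2%), with a median of 0.10 against 0.029. HSPB8, DNAJC12 and DNAJC22 were called higher in both fits, and DNAJC2, DNAJC13, HSP90AA1, HSP90B1, HSPA4 and CCT8 were called lower in both. These were 3 and 6 of the 74 genes. Of all 15120 tested genes 1493 were called higher in both fits and 1558 lower in both, so neither share was larger among the chaperone genes. In 29 genes every UC3DDP library lay above every UC3 library (42.1% of all tested genes did so), in 36 every UC3DDP library lay below (41.6%), and in 9 the lines overlapped. By the adjusted p alone, with no fold limit, 29 were higher (40.6% of all tested genes were) and 33 lower (39.9%). Without UC3DDP replicate 1 the calls were 8 higher and 16 lower (16.7% and 21.8% of all tested genes), with DNAJB4, DNAJC24, DNAJC25 and HSPH1 no longer past the fold limit. That library was the lowest of all 6 in each of the 20 genes called lower. Leaving out that library in the adjusted fit gave 6 higher and 3 lower (13.9% and 12.8%), and CCT8, HSP90B1 and HSPA4 then ended just short of the limit.

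**Figure D1:**
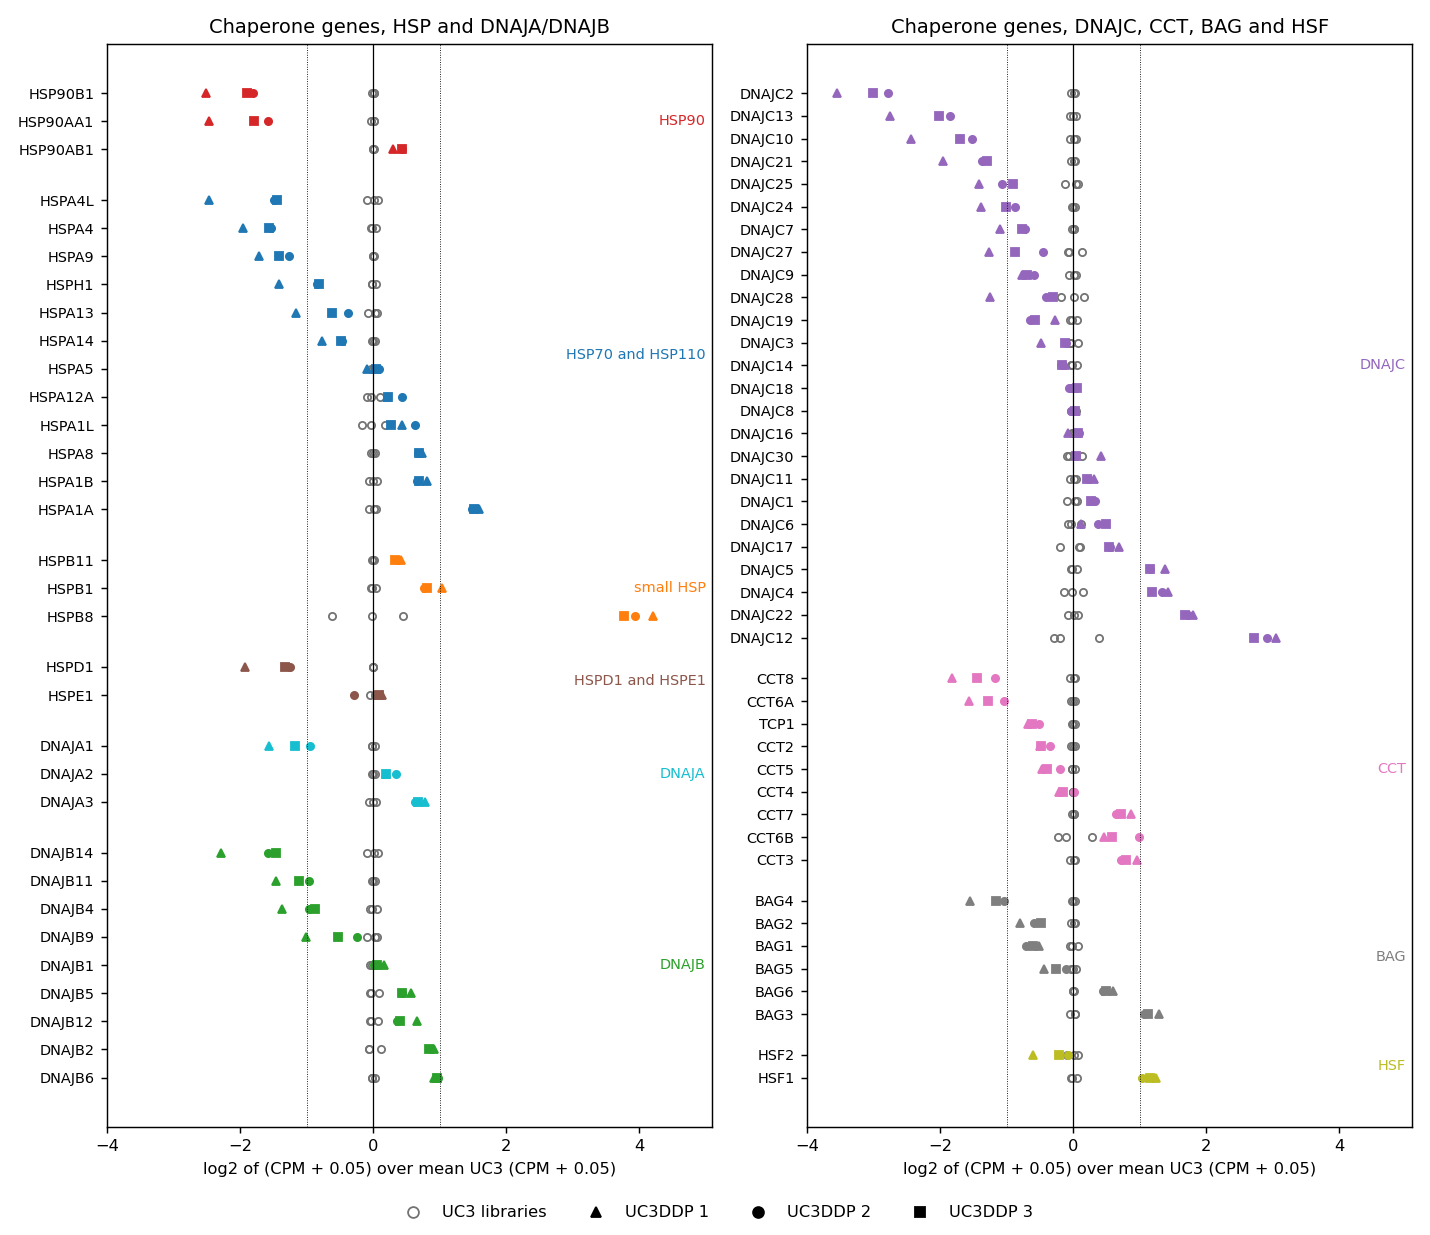
Every tested chaperone gene in each of the 6 libraries, as log2 of CPM plus 0.05 over the mean UC3 value. Open circles are UC3 libraries and filled symbols UC3DDP libraries, dotted lines mark a log2 difference of 1, and within each family genes run from the lowest to the highest fold change. HSP90B1, HSP90AA1, DNAJC2 and DNAJC13 lie far to the left and HSPB8 and DNAJC12 far to the right, and UC3DDP 1 (triangles) is the lowest library in all 20 genes called lower.

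The promoters of several chaperone genes hold short elements read by stress factors. The heat shock element, bound by HSF1, was searched on both strands as 3 alternating GAA and TTC units with any 2 bases between neighbours, starting with either unit, from 250 bases before to 50 bases after the RefSeq start sites (GRCh38.p14). Of 35116 such windows 172 (0.490%) held a match. Of the 91 windows of 69 chaperone genes 7 held one, in 7 genes: DNAJA1, DNAJB6, HSP90AA1, HSP90AB1, HSPA6, HSPA8 and HSPD1. The cytosolic HSP90 pair and HSPA8 are shown because their promoters share this element while their transcript levels went separate ways, and DNAJB6 and HSPD1 are added as a gene higher in every UC3DDP library, within the fold limit, and one called lower. The match of DNAJA1, not shown, covers positions 4 to 16 counted from the start, inside the transcript. Sequences run 5′ to 3′ along the strand of the gene and capitals mark the element:
HSP90AA1 chr14:102087095-102087157 (- strand): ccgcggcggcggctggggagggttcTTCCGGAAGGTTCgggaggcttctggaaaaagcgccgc
HSP90AB1 chr6:44247758-44247863 (+ strand): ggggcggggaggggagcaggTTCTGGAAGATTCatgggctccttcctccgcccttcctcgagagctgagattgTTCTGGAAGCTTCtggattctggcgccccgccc
HSPA8 chr11:123062346-123062374 (- strand): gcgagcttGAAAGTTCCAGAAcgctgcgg
HSPA8 chr11:123062171-123062199 (- strand): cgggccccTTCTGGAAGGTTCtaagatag
DNAJB6 chr7:157336848-157336910 (+ strand): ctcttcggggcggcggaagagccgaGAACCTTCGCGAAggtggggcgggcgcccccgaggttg
HSPD1 chr2:197500062-197500090 (- strand): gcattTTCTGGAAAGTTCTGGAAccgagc
The element lay 88 to 76 bases upstream of the start in HSP90AA1. HSP90AB1 held matches 165 to 153 and 112 to 100 bases upstream, HSPA8 at 230 to 218 and 55 to 43, and in HSPD1 a pair of matches overlapped. HSPD1 has more than 1 annotated start, and its element lies 245 to 228 bases upstream of the more downstream one. The ER stress response element, searched as CCAAT and CCACG with any 9 bases between them on either strand, is bound by ATF6 with NF-Y when unfolded protein builds up in the endoplasmic reticulum (ER). It occurred in 27 of the 35116 windows (0.0769%), and among the chaperone genes in HSPA5 and HSP90B1, the major HSP70 and HSP90 of the ER. These stretches are shown since this pair also separated in level, and in the last one the element is on the opposite strand:
HSPA5 chr9:125241386-125241414 (- strand): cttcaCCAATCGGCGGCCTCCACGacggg
HSP90B1 chr12:103930211-103930239 (+ strand): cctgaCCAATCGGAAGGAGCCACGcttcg
HSP90B1 chr12:103930316-103930344 (+ strand): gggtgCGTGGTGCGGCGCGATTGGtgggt
A match in these letters describes the sequence and does not show that a factor was bound.

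The HSP90 genes diverged. HSP90AA1 (ENSG00000080824, chromosome 14, 102080742 to 102139699, GRCh38) encodes the stress-inducible cytosolic HSP90 and was the chaperone gene with the highest level in UC3. It measured 4599, 4615 and 4450.2 CPM in the UC3 libraries and 819.8, 1528 and 1315 CPM in the UC3DDP libraries. Every UC3DDP library was far below every UC3 library, and UC3DDP replicate 1 was the lowest. The gene was 3.73-fold lower, a log2 fold change of -1.90 (SE 0.189, edgeR adjusted p = 1.4e-05), and its adjusted value was -1.75. HSP90AB1 (ENSG00000096384, chromosome 6, 44246166 to 44253888), the constitutive partner that can take over most cytosolic HSP90 functions, measured 2686, 2720.0 and 2699 CPM in UC3 and 3331, 3655 and 3646 CPM in UC3DDP. All UC3DDP libraries were higher, but the log2 fold change of 0.39 (SE 0.0551, edgeR adjusted p = 0.00013) and the adjusted value of 0.22 were below the fold limit. Per kilobase of exon, the level ratio of HSP90AA1 to HSP90AB1 was 1.36, 1.34 and 1.30 in UC3 and 0.195, 0.331 and 0.285 in UC3DDP, so that the leading cytosolic HSP90 transcript changed from the inducible to the constitutive gene. Both promoters hold the heat shock element printed above. The sum of the pair was 7149 to 7335 CPM in UC3 and 4150.4, 5183 and 4961 CPM in UC3DDP.

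HSP90B1 (ENSG00000166598, chromosome 12, 103930107 to 103953931), or GRP94, is the HSP90 of the ER and folds integrins and Toll-like receptors. Its level was 1189.8, 1191 and 1167 CPM in UC3 and 208, 340.0 and 319 CPM in UC3DDP, with no overlap. The log2 fold change was -2.03 (SE 0.161, edgeR adjusted p = 3.3e-06), and the adjusted value was -1.09, which became -0.998 without UC3DDP replicate 1 and so ended just inside the fold limit. HSPA5 (ENSG00000044574, chromosome 9, 125234853 to 125241382), or BiP, the HSP70 of the ER and the usual readout of ER stress, behaved otherwise. It measured 720.1, 737 and 750.1 CPM in UC3 and 694, 783 and 757 CPM in UC3DDP, and the lines overlapped. Its log2 fold change was 0.017 (SE 0.0655, edgeR adjusted p = 0.82) and its adjusted value 0.42 (edgeR adjusted p = 5.4e-06), below the fold limit in both fits. The per-kilobase ratio of HSP90B1 to HSPA5 was 2.33, 2.28 and 2.19 in UC3 and 0.423, 0.612 and 0.594 in UC3DDP. Transcript GC content was 39.7% for HSP90B1 and 43.7% for HSPA5. The median log2 fold change of protein-coding genes was -1.10 around 39.2% GC and -0.39 around 43.6% GC.

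**Figure D2:**
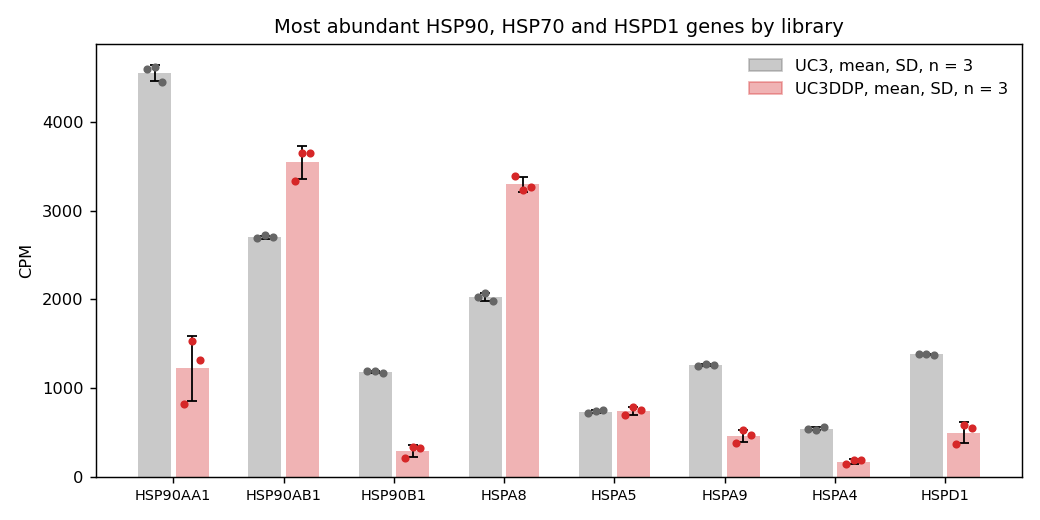
CPM of the most abundant HSP90, HSP70 and HSP60 genes. Bars show the mean and error bars the SD of 3 libraries per line, and points are single libraries. HSP90AA1, HSP90B1, HSPA9, HSPA4 and HSPD1 are lower in all UC3DDP libraries, HSP90AB1 and HSPA8 are higher in all of them, and the HSPA5 points of the lines overlap.

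In the HSP70 family, with the HSP110 genes, 1 of 12 tested genes was called higher and 4 lower (8.33% and 33.3%, against 17.6% and 23.1% of all tested genes). HSPA8 (ENSG00000109971, chromosome 11, 123057489 to 123063230), the constitutive cytosolic HSC70, measured 2027, 2075 and 1984 CPM in UC3 and 3388, 3233 and 3264 CPM in UC3DDP. All libraries of UC3DDP were above those of UC3, by 0.70 on the log2 scale (SE 0.0510, edgeR adjusted p = 2.1e-06), and the adjusted value was 0.78. HSPA8 thus kept a difference of similar size in both fits, although below the fold limit. Among other abundant chaperone genes HSP90AA1 (-1.90 and -1.75) and CCT2 (-0.44 and -0.39) did so too. Per kilobase HSPA8 stood in the third place in UC3 (896 ± 20.1 CPM per kilobase). In UC3DDP it (1455 ± 36.2) and HSP90AB1 (1387 ± 72.3) were the highest, and their order differed between the libraries.

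HSPA9, or mortalin, the HSP70 of the mitochondrial matrix, measured 1254, 1271 and 1255 CPM in UC3 and 385, 526 and 472 CPM in UC3DDP. The lines were fully separate, and the log2 fold change was -1.45 (SE 0.104, edgeR adjusted p = 2e-06). Its adjusted value of -0.82 was below the fold limit. HSPA4, an HSP110 protein that exchanges nucleotide on HSP70, measured 538, 532 and 563 CPM and 140.5, 188 and 185 CPM. It fell by 1.67 on the log2 scale (SE 0.111, edgeR adjusted p = 1.3e-06), with an adjusted value of -1.02 that was -0.98 without UC3DDP replicate 1. HSPA4L and HSPH1, the other HSP110 genes, were also called lower, from 74.5, 77.4 and 69.1 to 13.3, 26.1 and 27.0 CPM and from 219, 227 and 218 to 82.8, 123 and 126 CPM. In these GC-poor genes (37.5% and 39.6%) the log2 fold changes went from -1.73 to -0.12 and from -1.002 to 0.081 with the adjustment. HSPH1 lay at the fold limit, and its value without UC3DDP replicate 1 was -0.83. The per-kilobase ratio of HSPA8 to HSPA4, a chaperone and its exchange factor, was 7.95, 8.22 and 7.43 in UC3 and 50.9, 36.2 and 37.2 in UC3DDP.

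HSPA1A, the stress-inducible HSP70, was called higher, from 22.5, 21.3 and 23.1 CPM in UC3 to 67.3, 62.6 and 63.7 CPM in UC3DDP. The libraries did not overlap, and the log2 fold change was 1.53 (SE 0.0741, edgeR adjusted p = 3.1e-07), with an adjusted value of 0.78. HSPA1B, its nearly identical neighbour, measured 16.2, 17.6 and 16.8 CPM and 29.6, 26.7 and 27.1 CPM, with a log2 fold change of 0.72 and an adjusted value of -0.0051. The sources used here do not give how reads were divided between these copies, and 36.6% of the HSPA1B exon bases also belong to another annotated gene, so the split between them is uncertain. HSPA6, the strictly heat-induced HSP70, had 2, 4 and 3 counts in UC3 and 10, 4 and 5 counts in UC3DDP, and HSPA2, known for its role in the testis, had 3, 3 and 7 and 10, 2 and 6 counts. Both were below the filter on low counts and were not tested. The other genes of the family, HSPA13, HSPA12A and HSPA1L, ranged from -0.68 to 0.46 on the log2 scale, and from 0.081 to 0.85 after adjustment, and were not called in either fit.

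Among the small heat shock proteins, which hold unfolded proteins without ATP, HSPB8 changed most of all chaperone genes. HSPB8 (ENSG00000152137, chromosome 12, 119171555 to 119224855), which works with BAG3 in the selective autophagy of misfolded proteins, had 2, 3 and 1 counts in UC3 and 46, 39 and 34 counts in UC3DDP, or 2.34 ± 0.363 CPM in the resistant line (mean ± SD, n = 3). The groups did not overlap. The ratio of summed counts, relative to library totals, was 23.5 (95% exact interval 10.5 to 65.3, counting error only). The fitted log2 fold change was 4.46 (SE 0.338, edgeR adjusted p = 2.6e-06) and the adjusted value 4.00, and the gene remained rare in UC3DDP. HSPB1, or HSP27, the abundant member, measured 161, 169 and 162 CPM and 336, 279 and 289 CPM. Its log2 fold change was 0.87 (SE 0.0848, edgeR adjusted p = 1.2e-05), below the fold limit, and with a transcript of 64.3% GC its adjusted value was 0.044. HSPB11, which despite its name is a subunit of the intraflagellar transport machinery, had values of 0.37 and 0.81.

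HSPD1 (HSP60) and HSPE1 (HSP10) form the chaperonin of the mitochondrial matrix and are transcribed in opposite directions on chromosome 2, with 104 bases between the start of HSPE1 and the nearest annotated start of HSPD1. The heat shock element printed above belongs to another annotated start of HSPD1 and lies downstream of that nearest one. HSPD1 measured 1387, 1383 and 1378 CPM in UC3 and 365, 579 and 549 CPM in UC3DDP, with no overlap, and its log2 fold change was -1.47 (SE 0.150, edgeR adjusted p = 1.6e-05) with an adjusted value of -0.40. HSPE1 measured 46.4, 44.1 and 46.5 CPM in UC3 and 49.9, 37.4 and 48.6 CPM in UC3DDP. Here the lines overlapped, the log2 fold change was -0.012 (SE 0.110, edgeR adjusted p = 0.92), and the adjusted value of 1.27 (edgeR adjusted p = 1.3e-05) was called higher. The per-kilobase ratio of HSPD1 to HSPE1 was 7.41, 7.78 and 7.34 in UC3 and 1.81, 3.84 and 2.80 in UC3DDP, so the pair did not keep a fixed ratio of counted reads. The ratio of HSPD1 to HSPA9 was 2.17, 2.14 and 2.15 in UC3 and 1.86, 2.16 and 2.28 in UC3DDP, and the lines overlapped. HSPE1 is a short gene with 26 annotated pseudogenes and HSPD1 has 18, and reads shared with such copies cannot be assigned with certainty. Of the HSPE1 exon bases 17.9% also belong to other annotated genes, HSPD1 among them.

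J-domain proteins recruit HSP70 to its clients. Of the DNAJA and DNAJB genes, 12 of 13 were tested, and 4 were called lower and none higher (23.1% and 17.6% of all tested genes were). DNAJA1, the main cytosolic partner of HSPA8, measured 419, 432 and 417 CPM in UC3 and 143, 219.8 and 187 CPM in UC3DDP. It was lower in every UC3DDP library, by a log2 fold change of -1.20 (SE 0.136, edgeR adjusted p = 3e-05), with an adjusted value of -0.43. DNAJA2, with 133, 138 and 134 CPM and 155, 171 and 154 CPM, showed a log2 fold change of 0.25 (SE 0.0723, edgeR adjusted p = 0.011) and was called higher in the adjusted fit alone, at 1.16. DNAJA3, the mitochondrial member, had a log2 fold change of 0.69 and an adjusted value of 0.24.

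DNAJB14, an ER membrane protein, measured 56.3, 58.2 and 52.2 CPM in UC3 and 11.4, 18.6 and 20.1 CPM in UC3DDP. DNAJB11, the co-chaperone of HSPA5 in the ER lumen, measured 60.5, 59.3 and 58.8 CPM and 21.6, 30.4 and 27.5 CPM. DNAJB4 of the cytosol measured 65.3, 62.6 and 61.1 CPM and 24.3, 32.3 and 34.3 CPM. In all of these the UC3DDP libraries were below the UC3 libraries, with log2 fold changes of -1.73, -1.17 and -1.05 (edgeR adjusted p = 1.4e-05, 1.3e-05 and 3.2e-05). Their transcripts held 34.3%, 38.6% and 32.7% GC, and their adjusted values were -0.074, -0.067 and 0.57. DNAJB1, the classical heat-inducible HSP40, measured 116, 114 and 122 CPM in UC3 and 131, 118 and 122 CPM in UC3DDP. The lines overlapped, and the log2 fold change was 0.078 (SE 0.0730, edgeR adjusted p = 0.35). After adjustment the value was -0.59 (edgeR adjusted p = 1.3e-06), in the opposite direction and within the fold limit. DNAJB6, which holds back the aggregation of polyglutamine proteins, measured 189, 189 and 196 CPM and 359.7, 377.1 and 374 CPM. All UC3DDP libraries were above all UC3 libraries, but the log2 fold change of 0.95 (SE 0.0633, edgeR adjusted p = 1.3e-06) ended below the fold limit and the adjusted value was 0.35. DNAJB13, a protein of cilia and sperm tails, had 1 to 6 counts per library and was not tested. The remaining DNAJB2, DNAJB5, DNAJB9 and DNAJB12 ranged from -0.56 to 0.88 on the log2 scale, and from -0.17 to 0.67 after adjustment, with no call.

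The DNAJC genes share only the J domain and serve many compartments. Of 25 tested genes 4 were called higher and 6 lower (16.0% and 24.0%, near the 17.6% and 23.1% of all tested genes). In both fits 2 were called higher and 2 lower, against 1493 and 1558 of all 15120 tested genes. DNAJC2 (ENSG00000105821, chromosome 7, 103312289 to 103344830), also known as MPP11 or ZRF1, binds the ribosome together with HSPA14 and fell the most of all chaperone genes. It measured 98.3, 98.0 and 94.4 CPM in UC3 and 8.19, 14.0 and 11.97 CPM in UC3DDP. The resistant libraries were far below the parental ones, 8.51-fold lower, with a log2 fold change of -3.09 (SE 0.157, edgeR adjusted p = 3.8e-07) and an adjusted value of -2.69. Of its exon bases 21.1% also belong to other annotated genes, among them PMPCB. Its partner HSPA14 had a log2 fold change of -0.56 and an adjusted value of 0.19.

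DNAJC13, or RME-8, which sorts cargo on endosomes, measured 282, 289 and 274 CPM in UC3 and 41.7, 78.1 and 69.6 CPM in UC3DDP. The lines were separate, with a log2 fold change of -2.16 (SE 0.195, edgeR adjusted p = 7.5e-06) and an adjusted value of -1.22. DNAJC10, or ERdj5, a disulfide reductase of the ER, measured 237, 232 and 222 CPM and 42.6, 80.3 and 71.2 CPM. Its log2 fold change of -1.83 (SE 0.196, edgeR adjusted p = 2.1e-05) was close to that of DNAJC13, but with a transcript of 37.2% GC its adjusted value was 0.043. DNAJC21, a factor in the maturation of the large ribosomal subunit, was lower in all UC3DDP libraries (27.9, 41.9 and 44.02 CPM) than in UC3 (106, 109.7 and 110.1 CPM), with a log2 fold change of -1.51 (SE 0.150, edgeR adjusted p = 1.3e-05) and an adjusted value of -0.33. DNAJC24, which takes part in diphthamide synthesis, and DNAJC25 were called lower at -1.08 and -1.12, and their adjusted values were 0.12 and -0.42.

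Of the DNAJC genes that were called higher, DNAJC12, a co-chaperone of the aromatic amino acid hydroxylases, rose the most. It had 13, 8 and 8 counts in UC3 and 73, 68 and 58 counts in UC3DDP, or 0.481 ± 0.143 and 3.91 ± 0.451 CPM (mean ± SD, n = 3). No library overlapped, the log2 fold change was 3.01 (SE 0.222, edgeR adjusted p = 2.3e-06), and the adjusted value, in a transcript of 39.4% GC, was 3.99. DNAJC22, a membrane protein of the family, measured 9.82, 10.5 and 10.95 CPM and 36.5, 34.5 and 33.6 CPM. It rose by 1.74 on the log2 scale (SE 0.0806, edgeR adjusted p = 2.5e-07) and by 1.38 after adjustment. DNAJC5, the cysteine string protein of secretory vesicles, measured 111, 119 and 113 CPM in UC3 and 297, 253 and 255 CPM in UC3DDP, a log2 fold change of 1.23 (SE 0.0844, edgeR adjusted p = 1.5e-06). DNAJC4 measured 2.68, 2.90 and 3.27 CPM and 8.02, 7.503 and 6.75 CPM, a log2 fold change of 1.33 (SE 0.131, edgeR adjusted p = 1.3e-05). Both are GC-rich (57.7% and 58.4%), and with adjusted values of 0.66 and 0.60 neither passed the fold limit in that fit. DNAJC8, a protein linked to the spliceosome, overlapped between the lines, at 178, 182 and 187 CPM and 187, 179 and 186 CPM, with a log2 fold change of 0.015 and an adjusted value of 0.26. DNAJC7, which binds both HSP70 and HSP90, had a log2 fold change of -0.85 and an adjusted value of -0.82, below the fold limit. The other 13 tested DNAJC genes, among them DNAJC3 of the ER and DNAJC6, the auxilin that uncoats clathrin vesicles, ranged from -0.83 to 0.60, and from -0.60 to 0.95 after adjustment, and were not called in either fit. DNAJC5B had 5, 7 and 5 and 0, 4 and 3 counts and was not tested.

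The CCT ring is built of 8 different subunits, present once in each ring, and their transcript levels are compared per kilobase of exon. In UC3 the subunits lay close together, and the highest exceeded the lowest by 1.48, 1.46 and 1.56 times in the single libraries. In UC3DDP that ratio was 8.33, 4.86 and 6.10 times. CCT3 and CCT7 were higher in all UC3DDP libraries, at 535, 563 and 558 against 1074, 909 and 959 CPM and 498, 509.9 and 510.2 against 927, 793 and 832 CPM. Their log2 fold changes of 0.83 and 0.75 (edgeR adjusted p = 7.1e-06 and 1.1e-05) were below the fold limit, and the adjusted values were 0.40 and 0.32.

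CCT8 measured 499, 504 and 474 CPM in UC3 and 139, 218 and 181 CPM in UC3DDP, a log2 fold change of -1.46 (SE 0.142, edgeR adjusted p = 1.2e-05). Its adjusted value was -1.08, and -0.95 without UC3DDP replicate 1. CCT6A measured 499.5, 512 and 490.1 CPM and 169, 244 and 206 CPM, a log2 fold change of -1.28 (SE 0.121, edgeR adjusted p = 1e-05) with an adjusted value of -0.74. Both were below every UC3 library in every UC3DDP library. The other subunits, TCP1, CCT2, CCT5 and CCT4, had log2 fold changes of -0.61, -0.44, -0.35 and -0.12 and adjusted values of -0.044, -0.39, -0.091 and 0.35. Other annotated genes share 30.8% of the exon bases of CCT5, 16.9% of those of CCT4 and 12.4% of those of TCP1. Summed over the 8 subunits per kilobase, the level lay between 2085 and 2127 in UC3 and between 1928 and 2005 in UC3DDP. The sum was thus slightly lower in each UC3DDP library while the members spread apart. CCT3 and CCT7 have transcripts of 51.3% and 51.3% GC, whereas CCT8 and CCT6A have 43.4% and 42.5%. CCT6B, the testis-type copy of CCT6A, stayed under 1 CPM in all libraries (7, 10 and 8 and 10, 15 and 11 counts) and was called higher in the adjusted fit alone, at 2.19 against 0.76.

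**Figure D3:**
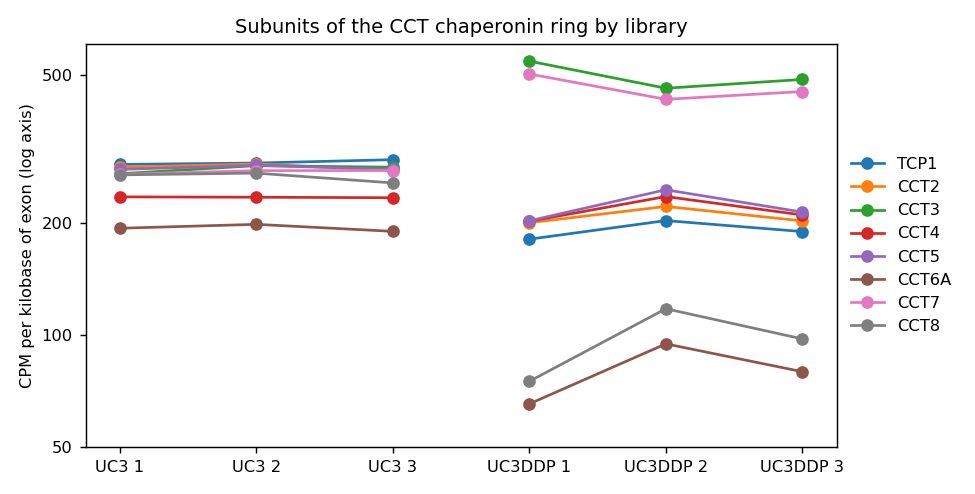
Levels of the 8 subunits of the CCT ring in each library, in CPM per kilobase of exon on a log axis, with a line for each subunit within a line of cells. The subunits run within 1.56-fold of each other in UC3 and spread over 4.86-fold to 8.33-fold in UC3DDP, with CCT3 and CCT7 at the top and CCT8 and CCT6A at the bottom.

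Most BAG proteins bind HSP70 and direct its clients to different fates. BAG3 (ENSG00000151929, chromosome 10, 119651380 to 119677819), the partner of HSPB8 in selective autophagy, measured 102, 108 and 108 CPM in UC3 and 260.1, 221 and 231 CPM in UC3DDP. Every UC3DDP library was above every UC3 library, with a log2 fold change of 1.16 (SE 0.0812, edgeR adjusted p = 1.7e-06) and an adjusted value of 0.49. Thus BAG3 and HSPB8 were both called higher without the adjustment, and HSPB8 alone with it. BAG4, the silencer of death domains, measured 42.0, 40.3 and 40.8 CPM and 13.9, 20.01 and 18.2 CPM. It was called lower at -1.24 (SE 0.120, edgeR adjusted p = 1.2e-05), and its adjusted value was -0.057. BAG6, which handles membrane proteins that missed their target, measured 217, 215 and 214 CPM and 327, 294 and 303 CPM, with values of 0.52 and -0.20. BAG1, an exchange factor that links HSP70 to the proteasome, had log2 fold changes of -0.61 and -0.79 in the fits without and with the adjustment, and BAG2, an inhibitor of the ubiquitin ligase STUB1, of -0.62 and 0.87. BAG5 had values of -0.26 and 0.38, and neither passed the fold limit. Of the BAG2 exon bases 44.2% also belong to other annotated genes, among them RAB23.

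HSF1 (ENSG00000185122, chromosome 8, 144291591 to 144314720), the master factor of the heat shock response, measured 54.5, 58.5 and 55.2 CPM in UC3 and 133, 115 and 125 CPM in UC3DDP. All UC3DDP libraries were above all UC3 libraries, and the log2 fold change was 1.15 (SE 0.0812, edgeR adjusted p = 1.8e-06). HSF1 has the GC-richest transcript of all tested chaperone genes (64.7%), and its adjusted value was 0.33 (edgeR adjusted p = 0.0001), below the fold limit. HSF2, which forms mixed trimers with HSF1, measured 44.1, 42.6 and 39.7 CPM and 27.7, 40.1 and 36.3 CPM. The lines overlapped, with a log2 fold change of -0.28 (SE 0.126, edgeR adjusted p = 0.066) and an adjusted value of 0.55. Transcript levels do not show the activity of HSF1, which is set on the protein.

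The direction of a chaperone gene went with its GC content. Of 42 tested genes with under 45% GC, 19 were called lower and 1, DNAJC12, higher. Of 24 with over 50% GC, 7 were called higher and none lower, and of the 8 between, 1 (HSP90AA1) was called lower. Protein-coding genes in general did the same. Of those under 45% GC, 46.8% were called lower and 5.80% higher. Of those over 50% GC, 30.9% were called higher and 3.81% lower. Between these limits 12.01% were called lower and 16.02% higher. Across the 74 genes Pearson's r between GC content and the log2 fold change was 0.585 and Spearman's rho 0.676, and after adjustment they were -0.042 and -0.11. The points share the same 6 libraries and genes are not independent replicates, so these are descriptions. HSP90AA1 (45.2% GC) and DNAJC2 (43.3%) lay well below the interquartile range of protein-coding genes of like GC content, and HSPB8, DNAJC12 and DNAJC22 well above it. Other genes also lay outside that range, among them DNAJC13, HSP90B1, HSPA4 and CCT8 below it and CCT6B, HSPE1 and DNAJA2 above it.

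**Figure D4:**
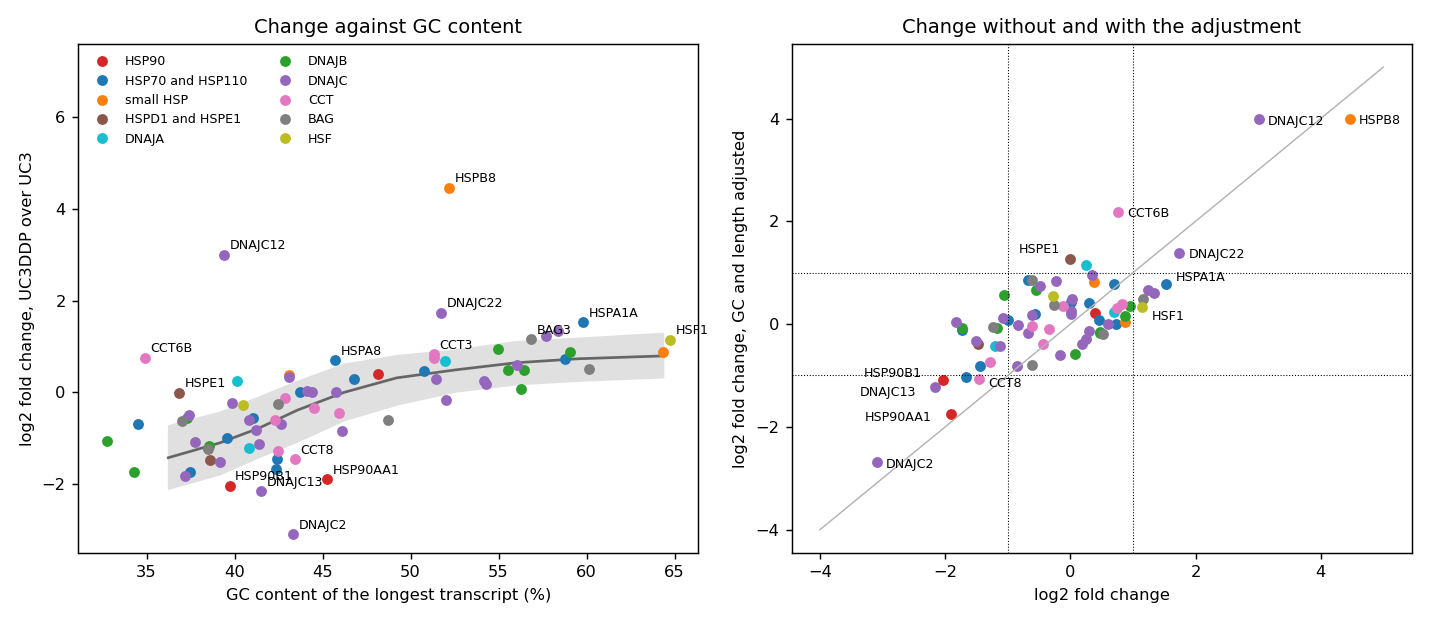
Left, log2 fold change of each tested chaperone gene against the GC content of its longest transcript, with the median (line) and interquartile range (grey) of all tested protein-coding genes in 10 equal groups. Right, the log2 fold change without (x axis) and with (y axis) the GC and length adjustment, where the diagonal marks equal values and dotted lines mark the fold limit. Most genes follow the grey band and move toward 0 with the adjustment, while HSPB8, DNAJC12 and DNAJC22 lie above and DNAJC2, HSP90AA1, DNAJC13, HSP90B1, HSPA4 and CCT8 below the limit on both axes.

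As heat-inducible genes, 20 chaperone genes and partners were listed from general knowledge, and 17 were tested. Of these 2 (HSPA1A and BAG3) were called higher and 6 lower (11.8% and 35.3%, against 17.6% and 23.1% of all tested genes), with a median log2 fold change of 0.39 against 0.021. In the adjusted fit 1 was higher and 1 lower (5.88% each, against 14.3% and 13.2%), with a median of 0.043 against 0.029. The 6 tested genes with a heat shock element in the searched windows went separate ways in the same manner. In DNAJA1 the match lies inside the transcript, and in HSPD1 it belongs to only 1 of its annotated starts. HSP90AA1, HSPD1 and DNAJA1 were called lower, while HSPA8, HSP90AB1 and DNAJB6 were higher in every UC3DDP library and below the fold limit. Of all tested genes 23.1% were called lower, and in 42.1% every UC3DDP library lay above every UC3 library. Of 8 chaperone genes of the ER lumen, 3 were called lower and none higher (37.5% lower, against 23.1% of all tested genes). Among protein-coding genes under 45% GC 46.8% were called lower, but this list also holds DNAJC1 with 51.4% GC. After adjustment 1 was lower (HSP90B1, 12.5%, against 13.2%). Of 9 mitochondrial chaperone genes, 1 (DNAJC4) was called higher and 2 (HSPA9 and HSPD1) lower (11.1% and 22.2%, against 17.6% and 23.1%). After adjustment 1 (HSPE1) was higher and none lower (14.3% and 13.2% of all tested genes were). In total the 78 genes took 2.33% to 2.36% of all counts in UC3 and 1.71%, 1.96% and 1.88% in UC3DDP, with HSP90AA1 as the largest part of that difference. In RNA of whole cultures a lower level of a gene in each cell cannot be told apart from fewer cells that express it.

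Partners of the chaperones outside these families were taken from a fixed list of 83 genes, of which 79 were in the table and 77 were tested. Of these 7 were called higher and 9 lower (9.09% and 11.7%, against 17.6% and 23.1% of all tested genes). In the adjusted fit 3 were called higher and 4 lower (3.90% and 5.19%, against 14.3% and 13.2%). In both fits 1 was called higher (HTRA2) and 1 lower (CLPX), against 1493 and 1558 of all 15120 tested genes. Among cytosolic co-chaperones RPAP3, a scaffold that joins HSP90 to the assembly of RNA polymerases, went from 96.7 ± 3.04 CPM in UC3 to 17.5 ± 3.803 CPM in UC3DDP (mean ± SD, n = 3), a log2 fold change of -2.46 (SE 0.140, edgeR adjusted p = 6.4e-07) and an adjusted value of -0.99. CHORDC1 and SUGT1, which bind HSP90, were called lower at -1.81 and -1.46, with adjusted values of -0.36 and 0.30. STUB1, the ubiquitin ligase CHIP that tags clients of HSP70 and HSP90, was called higher at 1.32, with an adjusted value of 0.49.

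In the ER, P4HB, a protein disulfide isomerase, went from 363 ± 7.48 to 1094 ± 71.9 CPM, a log2 fold change of 1.59 (SE 0.0683, edgeR adjusted p = 1.8e-07) and an adjusted value of 0.92. SDF2L1 and SDF2 were also called higher, at 1.33 and 1.07 and with adjusted values of 0.50 and 0.97. SEC63, a J-domain protein of the translocation channel, was called lower at -1.53, and its adjusted value was -0.37. Of the 19 tested genes of ER folding 3 were thus called higher and 1 lower (15.8% and 5.26%, against 17.6% and 23.1% of all tested genes). In the adjusted fit 1 was called higher and none lower (5.26% and 0%, against 14.3% and 13.2%), and no gene was called in both fits. HSPA5 overlapped between the lines.

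In the mitochondrion CLPX, the unfoldase of the CLPXP protease, went from 172 ± 4.86 to 24.9 ± 6.76 CPM, a log2 fold change of -2.79 (SE 0.173, edgeR adjusted p = 9.5e-07) and an adjusted value of -1.99. HTRA2, a serine protease, went from 17.7 ± 1.22 to 55.5 ± 5.20 CPM, with values of 1.65 (SE 0.0956, edgeR adjusted p = 7e-07) and 1.47. These genes passed the limit in both fits. GRPEL2, an exchange factor of HSPA9, was called lower at -1.19, with an adjusted value of -0.074. Of the prefoldin group, which hands proteins to the CCT ring, URI1 and VBP1 were called lower at -1.54 and -1.28, with adjusted values of -0.89 and 0.036.

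**Figure D5:**
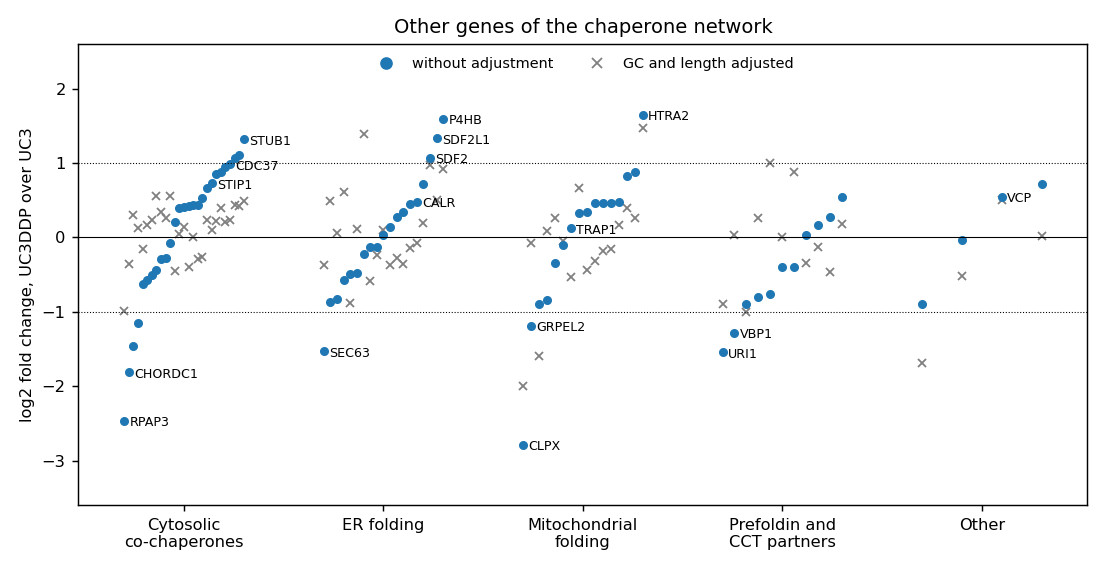
Log2 fold change of the 77 tested partner genes in 5 groups, ordered within each group from low to high. Filled points are values without and crosses values with the GC and length adjustment, and dotted lines mark the fold limit. CLPX lies below the limit and HTRA2 above it in both fits, while RPAP3 and CHORDC1 lie below it without the adjustment alone.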

How the data were processed

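Total RNA of 3 UC3 and 3 UC3DDP libraries was sequenced as paired reads, and the authors' methods name Fastp, HISAT2, featureCounts and DESeq2. The deposited file holds whole-number counts per gene on GRCh38, and its columns of the authors' own fold changes, p-values and FDR were not used. The labels disagree among themselves: the series text names T24, the extraction text names retina, and the submitters' processing notes name mm9. Groups were taken from the sample titles. The sources used here do not give the strand setting of the counting.

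The deposited counts were tested with edgeR 4.0.16 in R 4.3.3 (quasi-likelihood test, TMM, filterByExpr with a minimum count of 10), with Benjamini-Hochberg adjustment over all 15120 tested genes. The second fit used offsets from loess trends (span 0.3) on GC content of the longest transcript and on exon length. The thresholds for a call follow the study's methods. DESeq2 1.42.0 served as an alternative. The test was checked on simulated counts, in which all libraries had the same spread and the UC3DDP libraries the same GC trend. That check therefore does not cover the differences among the real UC3DDP libraries. Genes described by library were HSP90AA1, HSPA5, HSF1, HSF2, the most abundant gene of each family per kilobase, and up to 4 called genes of each family (8 for DNAJC) with the largest change and at least 1 CPM. The other named genes were chosen after their values were seen, except the partner genes, which followed the same rule. The members and lists were chosen with earlier results of these data known. One gene of the partner list is not reported here. Replicate numbers were not used for pairing. Alternatives were other scalings, no filter, no fold limit, protein-coding genes alone, a replicate block and leaving out each library.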

Additional observations from a re-analysis of the deposited data

How the results depend on the processing

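With the GC and length adjustment, alone, with the replicate block, or without UC3DDP replicate 1, the number of chaperone genes called lower was 6, 6 and 3, against 20 in the report. The number of all tested genes called lower was 1992, 1988 and 2012, and of partner genes 3, 2 and 2 were called higher and 4, 4 and 3 lower. Without a fold limit 29 chaperone genes were higher and 33 lower, 36 and 29 partner genes, and 6134 and 6038 of all tested genes. Leaving out each library in turn gave 8 chaperone genes higher and 16 to 21 lower, 6 to 8 and 9 to 11 partner genes, and 2611 to 2885 and 3415 to 3891 of all tested genes. Leaving out UC3 replicate 2, or scaling by library totals alone, took HSPH1 below the fold limit.

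The adjustment changed the direction of several genes, and the cause was not tested. In the fits with the adjustment alone, with the block, and without UC3DDP replicate 1, the log2 fold changes were 0.87, 0.87 and 0.77 for BAG2, -0.20, -0.20 and -0.18 for BAG6, 0.35, 0.35 and 0.35 for CCT4, -0.59, -0.58 and -0.55 for DNAJB1, 0.57, 0.57 and 0.55 for DNAJB4, 0.043, 0.038 and 0.10 for DNAJC10 and 0.12, 0.12 and 0.13 for DNAJC24. They were 0.55, 0.55 and 0.60 for HSF2, 0.19, 0.19 and 0.22 for HSPA14, 1.27, 1.26 and 1.11 for HSPE1, 0.081, 0.077 and 0.12 for HSPH1 and 0.30, 0.30 and 0.24 for SUGT1. In the fits with the adjustment alone and with the block they were -0.0051 and -0.0044 for HSPA1B and 0.036 and 0.036 for VBP1. DNAJC8 was -0.0025 with size factors, -0.0025 with DESeq2, -0.012 with protein-coding genes alone and ranged from -0.017 to 0.023 when single libraries were left out. HSPA5 was -0.010 with protein-coding genes alone, -0.013 without UC3 replicate 1 and ranged from -0.033 to 0.067 when single libraries were left out, and HSPE1 ranged from -0.087 to 0.10.

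Same-numbered libraries of the lines did not deviate together (r = -0.047, -0.014 and -0.0089), so the numbers were not treated as pairs, and the replicate block without the adjustment changed no call among the 65 genes named. Depth limits HSPB8, DNAJC12 and CCT6B, which rest on few counts in UC3, and the 4 untested genes.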

Other observations

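The table also holds 29 noncoding rows that carry the names of these families, 24 of them pseudogenes and 5 long noncoding RNAs. Of 17 that were tested, 1 was called higher and 9 lower (17.6% and 23.1% of all tested genes were), and with the GC and length adjustment 2 and 3 (14.3% and 13.2%). Values are given first without and then, in parentheses, with that adjustment. HSP90AA2P had a log2 fold change of -1.81 (-1.18) against -1.90 (-1.75) for HSP90AA1. HSP90AB3P had 0.52 (0.44) against 0.39 (0.22) for HSP90AB1, and HSP90B2P had -1.87 (-1.02) against -2.03 (-1.09) for HSP90B1. HSPD1P1 had -1.45 (-0.80) against -1.47 (-0.40) for HSPD1, CCT8P1 had -1.22 (-0.53) against -1.46 (-1.08) for CCT8, and CCT6P1 had -1.90 (-1.56) against -1.28 (-0.74) for CCT6A. Reads of a parent gene and of its copy cannot be told apart in these counts. DNAJC27-AS1, a transcript antisense to DNAJC27, was the row called higher, at 1.84 (1.55), and DNAJC27 itself had -0.83 (-0.0095). Since the strand setting of the counting was not stated, reads of such an overlapping pair cannot be told apart either. These rows were chosen after their values were seen.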
